A study of Mus musculus with 38 samples.

Results

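Ribosomes recovered by streptavidin pulldown from depolarized neurons with the bait TurboID-PSD95 were compared with all ribosomes of the same cultures. The comparison used 6 of the 38 samples of the series, 3 streptavidin pulldowns and the 3 inputs they were taken from, all ribosome-footprint libraries from primary cortical neurons of CD-1 mouse embryos. The neurons carried a lentivirus encoding TurboID-PSD95, in which the biotin ligase TurboID is joined to the postsynaptic scaffold PSD95 under a doxycycline-inducible promoter. They were silenced for 2 h with tetrodotoxin and DL-AP5, depolarized with 55 mM KCl for 1 h, and left to recover for 30 min. The recovery medium held biotin, tetrodotoxin and DL-AP5, so recovery and biotin labelling were the same 30 min. All libraries of this experiment, controls included, came from cells given cycloheximide for 2 min before 30 min of biotin, and each sample pooled 4 dishes. From each culture 10% of the monosomes were kept as the input and the rest went to the pulldown, so the input and pulldown that share a replicate number come from the same culture. Members were taken by sample title and were not selected on any measured value. The model was fitted on all 24 libraries of the KCl experiment, so the other 18 share in its estimate of the spread. Those are 6 libraries each of depolarized neurons with Pan-TurboID, a ligase with no localization signal, of resting neurons with TurboID-PSD95, which did not receive KCl, and of resting neurons with Pan-TurboID.

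The postsynaptic density is a protein mesh beneath the membrane of excitatory synapses. PSD95, encoded by Dlg4, anchors glutamate receptors there and belongs to a scaffold network that includes the Shank and Homer families. Some neuronal mRNAs travel into dendrites and are translated near synapses, where neuronal activity can change how much protein is made from them. TurboID attaches biotin to proteins close to it, ribosomal proteins among them, so that ribosomes near the bait can be recovered on streptavidin. The libraries used here include no pulldown without biotin or without a bait, so other ways of recovery were not tested. Receptors, channels and adhesion proteins are made on ribosomes bound to the endoplasmic reticulum, whereas ribosomal proteins, histones and most mitochondrial proteins are made in the cytosol.

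Footprints were counted in the files at their 5′ end with no offset. A ribosome holding a start codon in its P site protects bases on both sides of it, so the 5′ end of its footprint lies upstream of the start codon and is counted in the 5′ UTR. The start sites of 6 genes whose values are given below are printed to show where that border falls. Each run holds 15 bases before the start codon, the start codon in capitals, and 12 bases after it, in the direction of translation (reference sequence, GRCm38/mm10).

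Dlg4, the bait's gene, chr11:70018905-70018934, plus strand: gccaggccccccaacATGgactgtctctgt
Gria2, higher in the pulldown, chr3:80802370-80802399, minus strand: ctacttttcttggaaATGcaaaagattatg
Top2b, higher in the pulldown, chr14:16365664-16365693, plus strand: acgggaggcgctgccATGgccaagtccagc
Slc2a3, higher in the pulldown, chr6:122742376-122742405, minus strand: aactaggttgggaccATGgggacaacgaag
Mest, higher in the CDS and lower in the 5′ UTR, chr6:30740282-30740311, plus strand: acttggtcagaggatATGtatgtgttagaa
Cox8a, lower in both, chr19:7217498-7217527, minus strand: tcgttccgcgccgtcATGtctgtcctgacg

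Levels are given as CPM, counts per 1000000 CDS counts of the library after normalization, in 5′ UTRs too. They are not scaled by gene length. Changes are log2 pulldown over input from a model fitted across all genes, SE is its standard error, and genes pass at a false discovery rate (FDR) of 0.05. The 6 depolarized TurboID-PSD95 libraries held 8854360 to 23120125 counts each, of which 2057107 to 8804581 fell in the CDS of the transcripts used here. Neuronal markers were abundant in the depolarized TurboID-PSD95 libraries, at a summed 8607 to 9694 CPM in inputs and 6380 to 7775 in pulldowns, with all 12 markers counted. Their summed level was lower in every pulldown, and 9 of the 12 passed the test as lower, as did 17.4% of all genes. Excitatory cortical neuron markers summed to 1426 to 1928 CPM in inputs and 1558 to 1934 in pulldowns. Of these 8 markers 3 were higher and 2 lower (median 0.04). Astrocyte markers summed to 869 to 930 CPM in inputs and 1085 to 1118 in pulldowns, and their part in the results below was not tested. Inputs and pulldowns are fractions of the same cultures, so these sums compare footprints between fractions and not numbers of cells. Oligodendrocyte lineage markers summed to 189 to 280.4 CPM in inputs and 158 to 236 in pulldowns, with Mog at 0. Inhibitory neuron markers summed to 2371 to 3269 CPM in inputs and 2117 to 3100 in pulldowns, and 2 were higher and 5 lower (median −0.89). Microglial markers stayed at or below 5.50 CPM in sum, with Cx3cr1, C1qb and Itgam at 0, and endothelial and mural markers summed to 9.95 to 70.8 CPM in inputs and 9.58 to 91.8 in pulldowns, with 7 of 8 counted and Cdh5 at 0. The second pair of libraries stood apart, since its pulldown resembled its input more: the SD over genes of the log2 pulldown-to-input ratio was 0.49 in pair 2, against 1.04 and 0.76 in pairs 1 and 3.

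Dlg4 itself had the largest enrichment of the genes higher in the pulldown whose mean log2 CPM was at least 4. Its CDS (chr11:70018920-70031833, plus strand, 822 nt in the transcript used) had 54.5, 120.1 and 192 CPM in inputs 1, 2 and 3, and 349.7, 1434 and 5321 CPM in the pulldowns of the same numbers. Every pulldown exceeded every input, and the groups did not overlap. Level and enrichment both differed widely between cultures, with pulldown-to-input ratios of 6.41, 11.9 and 27.7 in pairs 1, 2 and 3. The fitted change was 13.6-fold (log2 3.76, SE 0.272, FDR 6.87e-08). In the Pan-TurboID libraries Dlg4 stood at 16.99, 30.5 and 26.4 CPM in the inputs and at 17.7, 27.6 and 22.8 CPM in the pulldowns, which overlapped.

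The enrichment ran along the whole coding sequence. On the Dlg4 transcript with the highest count, whose CDS is 2175 nt in 20 segments, the inputs held 200.4, 395 and 642 CPM and the pulldowns 1293, 4135 and 16878 CPM. All 20 segments were higher in the pulldown on average, by 8.77- to 75.4-fold with a median of 17.2, and 59 of the 60 segment pairs went that way. The 5′ UTR of that transcript (476 nt) behaved otherwise, at 234, 205 and 176 CPM in inputs and 53.9, 104 and 52.9 CPM in pulldowns. There every pulldown was below every input. The bait construct carries a rat PSD95 coding sequence and PSD95 UTRs, according to the study's methods, and reads were aligned to the mouse genome. Construct and endogenous Dlg4 footprints cannot be told apart in these counts, and the levels above can include both.

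**Figure D1:**
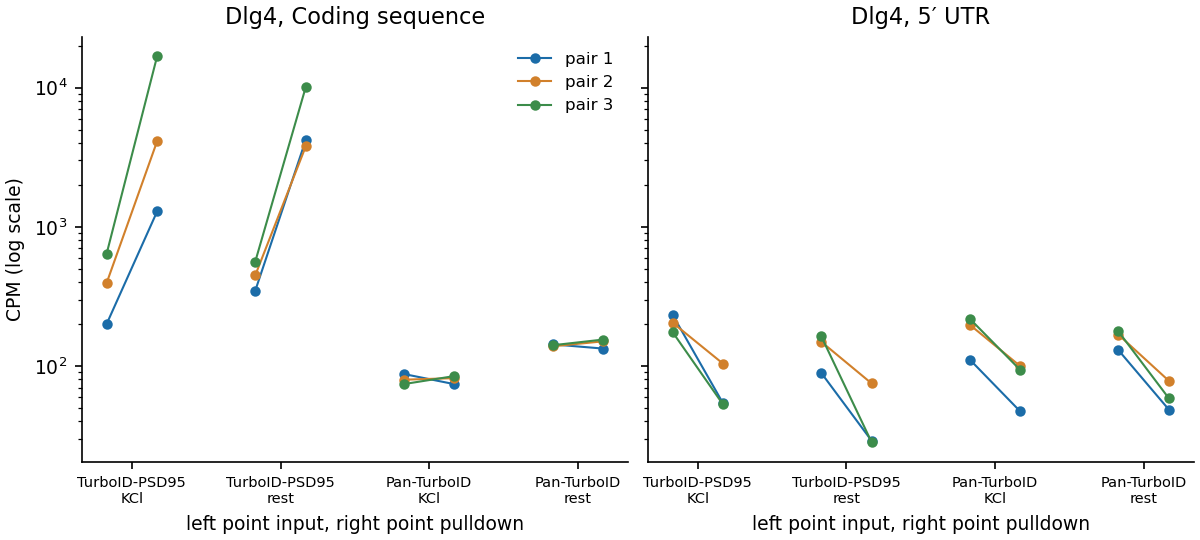
Dlg4 CPM (log scale) in the CDS (left) and the 5′ UTR (right) of its transcript with the highest count, for each bait with KCl and at rest; a line joins the input (left point) and the pulldown (right point) of 1 culture, coloured by pair. In the CDS, the depolarized TurboID-PSD95 pulldowns (1293, 4135 and 16878) lie above their inputs (200.4, 395 and 642), while the Pan-TurboID lines are near flat, and in the 5′ UTR every pulldown lies below its input.

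Of 13019 genes tested in the coding sequence, 2236 were higher in the pulldown (17.2%) and 2266 lower (17.4%) at an FDR of 0.05, 4502 in all (34.6%), and the median log2 change was −0.02. In 4324 of the 4502, all 3 pairs moved the same way. The values of the 3 pulldowns and 3 inputs did not overlap in 3423 genes (26.3%). The count depended on the libraries: without the third replicate of all groups 2080 genes passed, 2061 of them among the 4502, without the replicate block 1640 passed (1069 higher, 571 lower), and with only the 6 libraries compared in the fit 2446. The balance of directions rests on the scaling, and library totals alone gave 2066 higher and 2492 lower.

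The 12 genes with the smallest p-values among those higher in the pulldown had a CDS of 1458 to 15543 nt. Gria2, an AMPA receptor subunit, had 591, 192 and 346 CPM in the inputs and 1326, 443 and 848 CPM in the pulldowns (log2 1.22, SE 0.106, FDR 1.57e-08). Each pulldown was above its own input, but the second pulldown lay below the first input, so the groups overlapped. Top2b, a DNA topoisomerase, went from 249, 147 and 211 CPM to 602, 447 and 549.5 CPM (log2 1.42, SE 0.114), with every pulldown above every input. Slc2a3, the neuronal glucose transporter, went from 418, 234 and 277 CPM to 1045, 523 and 688 CPM (log2 1.27, SE 0.107), and its groups did not overlap either. The amino acid transporter Slc38a1 went from 217, 118 and 125 CPM to 567, 310.0 and 339 CPM (log2 1.40, SE 0.113). In that gene too, every pulldown exceeded every input.

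Other genes of the 12 with the smallest p-values included 3 more transport proteins. Atp2a2, the calcium pump of the endoplasmic reticulum, had 1287, 480.1 and 600.0 CPM in inputs and 3357, 947 and 1833 CPM in pulldowns (log2 1.33). The sodium-calcium exchanger Slc8a1 was higher by 1.28 and the lipid transporter Abca3 by 1.53 on the log2 scale. The lowest of the Atp2a2 pulldowns lay below the highest input, while all 3 pairs rose, as the choice of genes required. Ubr4, a very large ubiquitin ligase, had 503, 209.9 and 284 CPM in inputs and 1308, 414 and 972 CPM in pulldowns (log2 1.38, SE 0.125). The remaining genes were 4932438A13Rik (log2 1.71), Wdfy3, a large autophagy adaptor (1.68), the fatty-acid ligase Acsl4 (1.37) and the splicing factor Puf60 (1.39). FDR values of all 12 lay between 8.72e-09 and 2.77e-08.

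The 12 genes lower in the pulldown with the smallest p-values had a CDS of 213 to 918 nt. Hist1h2ao, a histone H2A gene, had 255, 204 and 307 CPM in inputs and 54.4, 110.2 and 81.9 CPM in pulldowns (log2 −1.63, SE 0.181, FDR 5.52e-07). Every pulldown was below every input. Cox4i1, a subunit of cytochrome c oxidase, went from 1054, 1401 and 1205 CPM to 488, 907 and 669 CPM (log2 −0.86, SE 0.109). Its second pulldown remained closest to the inputs but was below all of them.

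Cfl1, the actin-severing protein cofilin, had 783, 1397 and 968 CPM in inputs and 280.2, 931 and 520.5 CPM in pulldowns (log2 −0.98, SE 0.128), and the groups overlapped because the second pulldown exceeded the first input. Igfbp2, a secreted growth-factor binding protein, had 225, 352 and 895 CPM in inputs and 106, 193 and 409.8 CPM in pulldowns (log2 −1.03, SE 0.126). Here the inputs differed widely among cultures and the groups overlapped. Each pulldown was below its own input, as the choice of genes required. Also among the 12 were the histone genes Hist1h2ah (log2 −1.78) and Hist2h2aa1 (−1.57), Rpl38 of the large ribosomal subunit (−1.35), the microtubule-destabilizing protein Stmn1 (−1.11), the ubiquitin-ligase adaptor Ndfip1 (−1.20), Rnf187 (−1.07) and the splicing protein Txnl4a (−1.18). Near-identical histone and ribosomal protein genes can share reads, and how such reads were handled is not given in the sources used here.

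**Figure D2:**
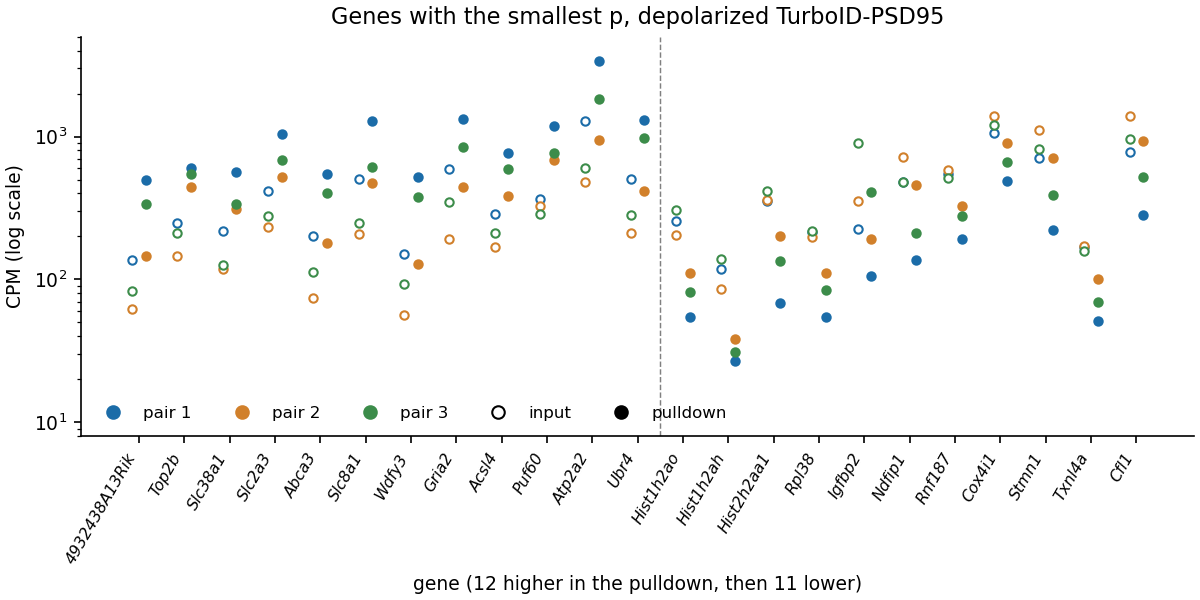
CPM in each of the 3 inputs and 3 pulldowns for 12 genes higher and 11 lower in the pulldown from those with the smallest p-values, on a log axis. Open circles are inputs, filled circles pulldowns, and the colour gives the pair. The Gria2 and Cfl1 groups overlap, whereas those of Top2b and Cox4i1 do not.

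The counts of list members called, here and below, are to be read beside 17.2% higher and 17.4% lower over all genes. Proteins of the postsynaptic density did not move as one. Of 20 scaffold genes tested, 8 were higher and 3 lower, with a median log2 change of 0.39 and medians of 0.62, 0.03 and 0.39 in the 3 pairs. Without the second pair the median was 0.72 (10 higher, 3 lower) and without the first 0.21, and with the trend of change with coding length removed, as described below, it was 0.14 (5 higher, 5 lower). Dlg1, the PSD95 relative SAP97, had 27.7, 18.7 and 26.8 CPM in inputs and 38.8, 49.1 and 147 CPM in pulldowns (log2 1.54, SE 0.284, FDR 0.000229), so that all pulldowns were higher and the third most of all. Shank1, a scaffold whose mRNA is known to enter dendrites, had 135, 109.9 and 114 CPM in inputs and 125, 124 and 129.5 CPM in pulldowns, which overlapped (log2 0.09, FDR 0.673). The related Shank2 and Shank3 were higher, by 0.56 (FDR 0.00818) and 0.70 (FDR 0.00356). Homer1 was counted on a short isoform with a CDS of 561 nt, at 9.09, 17.5 and 13.7 CPM in inputs and 83.2, 32.2 and 17.9 CPM in pulldowns (log2 1.36, SE 0.370), with all pulldowns above all inputs. Dlg3, Dlgap4 and Ppp1r9b, the actin-binding spinophilin, were lower by 0.51, 0.39 and 0.47.

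Receptors for glutamate and GABA were higher or did not pass. Of 26 glutamate receptor genes 17 were higher and none lower, with a median of 0.72 on the log2 scale and 0.73, 0.63 and 0.85 in the 3 pairs. Gria3 (log2 1.26), Gria2 (1.22) and Gria1 (0.87) of the AMPA receptors, Grin1 (0.62) and Grin2b (0.76) of the NMDA receptors and the metabotropic receptor Grm5 (0.84) were among those higher. Of 17 genes for GABA receptors and gephyrin, 13 were higher and none lower, with a median of 0.62. Gabrb2, an inhibitory receptor subunit, had 170.5, 67.6 and 96.5 CPM in inputs and 394, 133.5 and 184 CPM in pulldowns (log2 1.04, SE 0.128). Gphn, the scaffold of inhibitory synapses, did not pass (log2 0.06, FDR 0.770).

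Of 15 genes of the CaMKII family and other dendritic mRNAs, 6 were higher and 3 lower, with a median of 0.18. Camk2a, a kinase subunit whose mRNA is known to enter dendrites, had 137, 70.9 and 94.7 CPM in inputs and 223, 123.1 and 205 CPM in pulldowns (log2 0.88, SE 0.144, FDR 4.63e-05), each above its own input with overlap between groups. Map2, the dendritic microtubule protein, had 4153, 3083 and 3716 CPM in inputs and 2094, 2620 and 2857 CPM in pulldowns (log2 −0.53, FDR 0.0015), all pulldowns lying below all inputs. Arc, an activity-induced gene, had 112, 169 and 137 CPM in inputs and 77.1, 131 and 106 CPM in pulldowns (log2 −0.42, FDR 0.0753), which did not pass. The CaMKII inhibitor Camk2n1 was lower (log2 −1.51).

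Adhesion proteins and ion channels were higher more often than lower. Of 28 synaptic adhesion genes 18 were higher and 1 lower (median 0.58), but 5 higher and 5 lower (median 0.23) with the length trend removed. Among the 18 were Lrrtm2 (log2 1.21) and Nlgn1 (0.66), which hold pre- and postsynaptic membranes together. Of 25 voltage-gated sodium and calcium channel genes 14 were higher and none lower, with a median of 1.18, which was 0.79 without the third pair and 0.74 over the members with a mean log2 CPM of at least 4. Scn2a, a sodium channel of axons, had 379, 167 and 258 CPM in inputs and 801, 379 and 648 CPM in pulldowns (log2 1.20, SE 0.119), the lowest pulldown and the highest input being nearly equal. Cacna1a and Cacna1e, calcium channels of synaptic terminals and dendrites, were higher by 1.34 and 1.33. Of 67 potassium channel genes 30 were higher and 1 lower (median 0.71), with Kcnk9 higher by 1.33.

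Presynaptic genes split. Of 34 genes for synaptic vesicles and SNARE proteins, 12 were higher and 11 lower (median 0.16, and 0.07 and 0.09 without the second or the third pair). The vesicle membrane protein Sv2a had 592, 449 and 389 CPM in inputs and 1631, 734 and 1215 CPM in pulldowns (log2 1.27, SE 0.136), without overlap. Snap25 was lower by 0.47, and Syn1 did not pass (log2 0.14, FDR 0.423). Of 15 active zone scaffolds 4 were higher and 3 lower (median 0.27), and the median was 0.11 without the first or without the third pair.

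Cytoskeletal genes ran in both directions. Of 23 microtubule-associated proteins 5 were higher and 10 lower (median −0.20). Map1b, a large microtubule protein, had 9096, 6417 and 6809 CPM in inputs and 24855, 11291 and 13181 CPM in pulldowns (log2 1.07, SE 0.116, FDR 2.32e-07), without overlap. Its relative Map1a was higher by 1.32, whereas Mapt (tau) was lower by 0.84. Actb (beta-actin) was lower by 0.62, in a list of 16 tubulin and actin genes with 4 higher and 4 lower. Over all genes 17.2% were higher and 17.4% lower. Of 49 motor genes 15 were higher and 3 lower (median 0.42, and 0.21 without the third pair), Dync1h1, the dynein heavy chain, among the higher (log2 1.03). With the length trend removed 4 motor genes were higher and 3 lower (median 0.02), and Dync1h1 did not pass (log2 0.24, FDR 0.123). Of 15 spectrins, ankyrins and large linkers 4 were higher and none lower (median 0.20). Without the second pair 4 were higher and 2 lower (median 0.10), and none were higher and 7 lower (median −0.42) with the length trend removed. Of 26 growth cone and axon genes 8 were higher and 9 lower (median 0.01, and −0.10 to 0.04 with a pair left out). Gap43 was lower by 0.94 and Basp1 by 0.92.

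All 13 giant ubiquitin ligases tested were higher in the pulldown (median 1.06), among them Huwe1 (log2 1.28), Herc1 (1.18) and Mycbp2 (1.18). Their median CDS was 13257 nt, and with the length trend removed 6 of the 13 were higher (median 0.37). Of 37 proteasome genes 4 were higher and 14 lower (median −0.20).

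Of 81 cytosolic ribosomal protein genes, 67 were lower and none higher, with a median of −0.94. Rpl10a had 175, 144 and 188 CPM in inputs and 38.8, 98.0 and 69.5 CPM in pulldowns (log2 −1.32, SE 0.218, FDR 8.5e-05), all below the inputs. Of 39 initiation factors 5 were higher and 12 lower (median −0.30, and −0.19 without the first pair). Eif5b, which joins the ribosomal subunits, had 65.8, 74.1 and 114 CPM in inputs and 372, 259.5 and 259.6 CPM in pulldowns (log2 1.80, SE 0.220), without overlap. Eif4g2, an initiation factor for both cap-independent and cap-dependent translation, had 586, 516 and 744 CPM in inputs and 480.3, 527 and 519 CPM in pulldowns. These overlapped (log2 −0.26, FDR 0.0884). Of 14 elongation and release factors 2 were higher and 2 lower (median −0.01), and of 35 RNA granule proteins 1 was higher and 17 lower (median −0.41), Caprin1 by 0.66 among them.

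Most subunits of the respiratory chain are encoded in the nucleus and a few in mitochondrial DNA. Of 79 nuclear-encoded oxidative phosphorylation subunits 60 were lower and 2 higher (median −0.85), and of 78 mitochondrial ribosomal proteins 44 were lower and none higher (median −0.70). Cox8a, a cytochrome c oxidase subunit, had 940.4, 1236 and 987 CPM in inputs and 227, 762 and 429 CPM in pulldowns (log2 −1.30, SE 0.190). All its pulldowns were below all its inputs. Of 13 subunits encoded in mitochondrial DNA 9 were higher and 1 lower (median 0.77). mt-Nd4, a complex I subunit, had 178, 83.3 and 143 CPM in inputs and 355, 236 and 408 CPM in pulldowns (log2 1.34, SE 0.130), and mt-Co1 was higher by 1.07. Every mt-Nd4 pulldown exceeded every input. Mitochondrial DNA is translated by mitochondrial ribosomes.

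Histone genes were lower in the pulldown with hardly an exception. Of 66 replication-dependent histone genes 64 were lower and none higher (median −1.24). The markers of dividing cells summed to 148 to 256 CPM in inputs and 196 to 351 CPM in pulldowns, and their part in the histone counts was not tested. Of 28 genes for the translocon, signal recognition and ribosome receptors of the endoplasmic reticulum 8 were higher and 9 lower (median −0.28). Without the second pair 7 were higher and 15 lower (median −0.55), the medians without the first or the third pair were −0.17 and −0.14, and with the length trend removed 8 were higher and 3 lower (median 0.03). Rrbp1, a ribosome-binding membrane protein, had 78.8, 66.6 and 59.2 CPM in inputs and 306, 162 and 208 CPM in pulldowns (log2 1.68, SE 0.157), whereas the small translocon subunit Sec61b was lower by 1.15. Of 28 chaperones 7 were higher and 9 lower (median −0.03).

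Depolarization induces immediate early genes in neurons, and their footprints were lower in the pulldown where they passed, apart from Homer1 and Dusp1. Of 28 such genes 2 were higher and 11 lower (median −0.41). Fos, a transcription factor, had 2078, 2845 and 2694 CPM in inputs and 776, 2171 and 1849 CPM in pulldowns (log2 −0.78, SE 0.143), with overlap between groups, and Jund was lower by 0.96. Npas4 did not pass (log2 0.29, FDR 0.116). Of 12 genes of the integrated stress response 4 were higher and 3 lower (median −0.12, and −0.15 to −0.19 with a pair left out). Atf4 was among the lower (log2 −0.36). Of 16 glycolytic enzymes 5 were higher and 6 lower (median 0.03, and −0.01 to 0.13 with a pair left out). Carboxylases carry biotin as a cofactor. Of 7 genes of that list 3 were higher and none lower (median 0.48), led by Acaca, acetyl-CoA carboxylase, at 69.7, 44.4 and 58.9 CPM in inputs and 461, 144 and 395 CPM in pulldowns (log2 2.40, SE 0.277), without overlap.

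**Figure D3:**
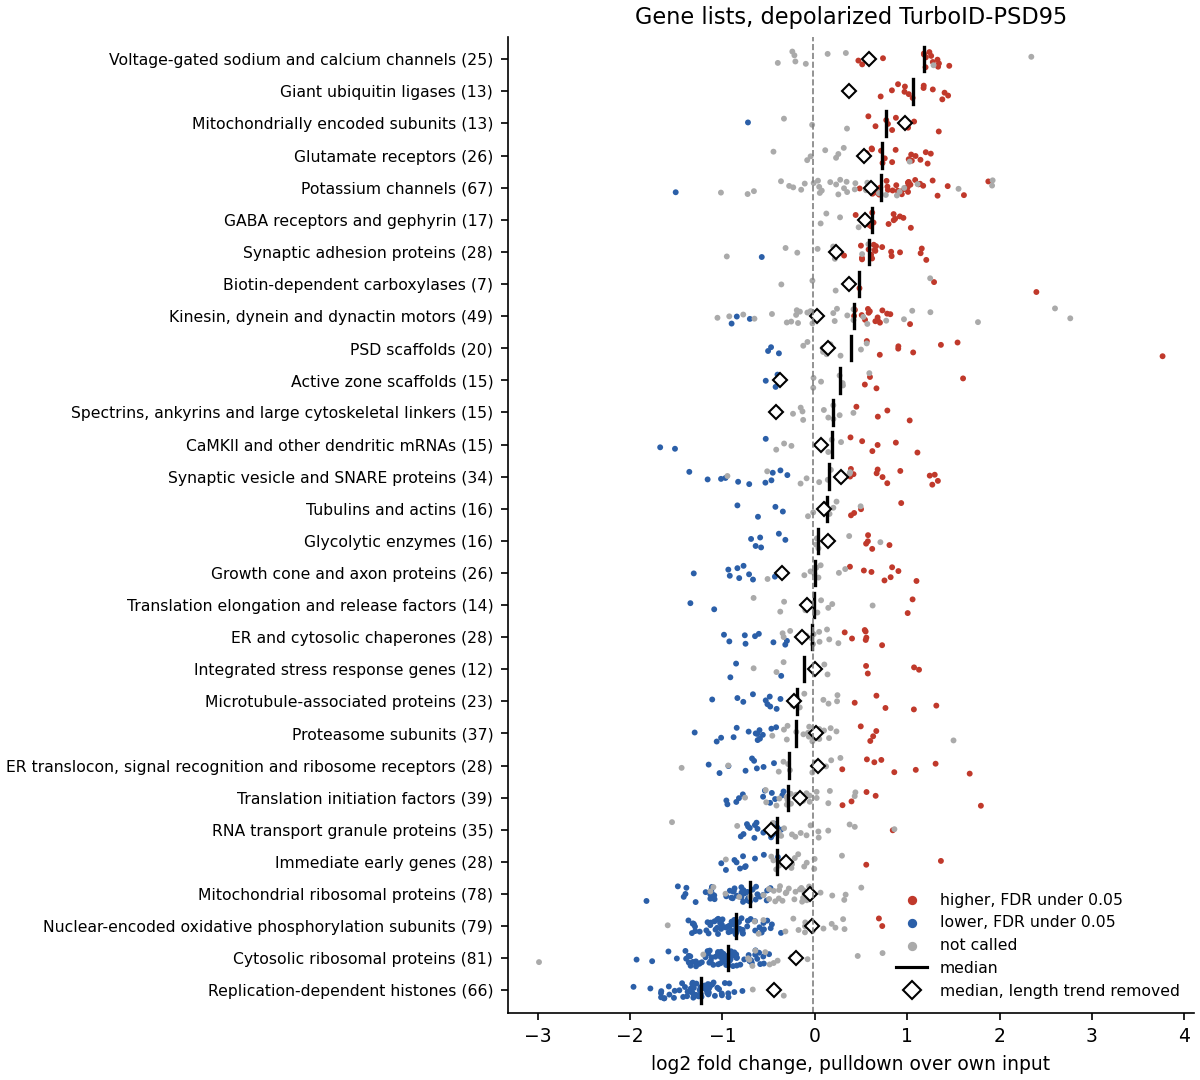
Log2 pulldown-over-input fold change of each tested member of the 30 gene lists (number tested in brackets), coloured by call, with the list's median as a bar, its median with the length trend removed as a diamond, and the median of all genes as a dashed line. Of the 30 medians, 17 lie above 0, from −1.24 for histones to 1.18 for sodium and calcium channels, a list at 0.74 over its members with a mean log2 CPM of at least 4.

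The changes followed coding length. Across the 13019 genes Spearman's correlation between CDS length and log2 change was 0.52, and it was 0.42, 0.36 and 0.53 in pairs 1, 2 and 3 (across genes, which are not independent replicates). Genes were put in 10 groups of equal size by length. In the group with the shortest coding sequences (20 to 480 nt) 640 of 1302 genes were lower and 8 higher, with a median of −0.92. In the group with the longest (3558 to 106173 nt) 595 were higher and 49 lower, with a median of 0.56. Pan-TurboID and resting TurboID-PSD95 pulldowns had correlations of 0.52 and 0.53 with length. With the length trend removed from the libraries, 1577 genes were higher and 1457 lower, and 2339 of the 4502 genes above remained called, 9 of them in the opposite direction.

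Several lists changed their balance of calls with the trend removed, among them those given so above. With length removed, glutamate receptors had a median of 0.53 with 11 higher and none lower, GABA receptors 0.54 with 10 and none, potassium channels 0.61 with 22 and none, and mitochondrially encoded subunits 0.98 with 12 and none. Ribosomal proteins then had a median of −0.21 with 1 higher and 18 lower, nuclear-encoded oxidative phosphorylation subunits −0.03 with 5 higher and 6 lower, and histones −0.44 with none higher and 25 lower. RNA granule proteins were at −0.48 with 1 higher and 18 lower, and inhibitory neuron markers at −0.36 with 2 higher and 2 lower. Sodium and calcium channels were at 0.59 with 9 higher and none lower, the CaMKII and dendritic list at 0.07 with 2 and 2, and vesicle and SNARE proteins at 0.28 with 12 and 4. Active zone scaffolds went to −0.38 with 2 higher and 8 lower, and growth cone and axon genes to −0.36 with 6 and 13. Mitochondrial ribosomal proteins were at −0.06 with 2 higher and 10 lower, proteasome genes at 0.01 with 4 and 6, and chaperones at −0.14 with 4 and 10. Shank1, Kmt2d and Pclo, which had not passed, changed sign (to −0.50, −0.72 and −0.51), and Shank1 (FDR 0.00677) and Kmt2d (FDR 5.6e-05) then passed as lower. Snap25, which had been lower, was at 0.07 (FDR 0.733).

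Single genes described above also lost their call with the length trend removed. Among those lower, Rpl10a went to −0.17 (FDR 0.495), Rpl38 to −0.25 (FDR 0.202), Cox4i1 to −0.15 (FDR 0.349), Cox8a to −0.16 (FDR 0.290) and Cfl1 to −0.26 (FDR 0.0652). Camk2n1 (−0.54), Sec61b (−0.20) and Atf4 (−0.20) did not pass either. Among those higher, Shank2 went to 0.02, Shank3 to 0.17, Grin1 to 0.25, Grin2b to 0.26, Nlgn1 to 0.35 and Psd to 0.13, none of which passed. The change of Map1b went from 1.07 to 0.44 and that of Map2 from −0.53 to −1.08, and both still passed. Eif4g2, in contrast, passed as lower (−0.60, FDR 0.000265).

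Position within the coding sequence also differed. Over 2721 genes with enough counts and segments, the CDS was divided into 5 equal parts. All counts of a segment were put in the part that held its midpoint. The mean share of CDS counts in the first part was 28.3%, 40.1% and 35.8% in inputs 1, 2 and 3. It was 11.6%, 27.7% and 17.2% in the pulldowns. The last part held 16.9%, 11.7% and 13.5% in inputs and 24.8%, 16.5% and 22.1% in pulldowns. Within each pair the pulldown was lower at the start and higher at the end. The differences averaged −15.9 percentage points (SD 3.16, n = 3) for the first part and 7.13 for the last, with the smallest p-value that 3 pairs allow in an exact two-sided paired permutation test, 0.25. The difference from Pan-TurboID gave exact permutation p = 0.3 and 0.6, and from rest 0.5 and 0.9.

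**Figure D4:**
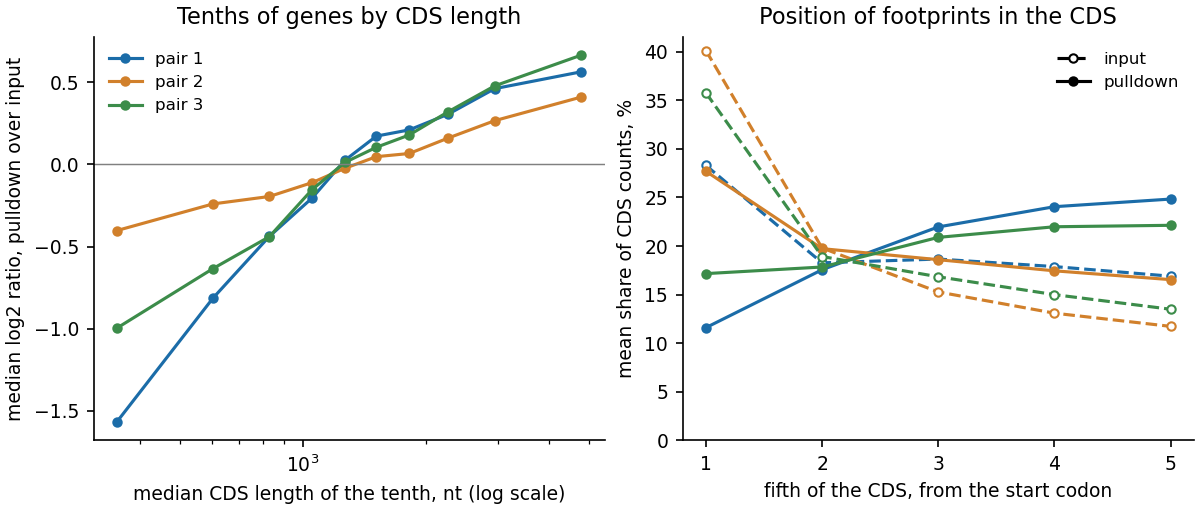
Left, median log2 pulldown-to-input ratio of each pair in 10 groups of genes by CDS length (log axis, nt); right, mean share of CDS counts (%) in each of 5 parts of the CDS, inputs as open points on dashed lines and pulldowns as filled points. The ratio is lowest in the group with the shortest CDS and highest in the longest in all 3 pairs, and the first part holds 28.3% to 40.1% of counts in inputs and 11.6% to 27.7% in pulldowns.

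The 5′ UTRs held a lower share of counts in every pulldown than in every input. They held 22.01%, 27.1% and 23.4% of the counts in transcript regions in inputs 1, 2 and 3, and 5.15%, 18.4% and 9.93% in the pulldowns, a mean of 24.2% ± 2.66 against 11.2% ± 6.70 (SD, n = 3). The second pulldown was the nearest to the inputs. The mean difference was −13.0 percentage points (SD 4.06), with an exact paired permutation p of 0.25 and an exact unpaired p of 0.1, each the smallest possible. The 3′ UTR share was 1.61%, 1.47% and 1.49% in inputs and 2.95%, 1.86% and 2.59% in pulldowns, higher in each pair and by 0.942 points on average. The difference of these differences from Pan-TurboID had exact permutation p = 0.7 for the 5′ UTR (−1.40 points) and 1 for the 3′ UTR, and that from rest 0.9 (−0.777 points) and 0.7, where 0.1 is the smallest that 3 against 3 allows.

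Gene by gene, of 10186 5′ UTRs tested 4734 were lower in the pulldown (46.5%) and 3 higher (0.0295%), with library sizes from the CDS, and the median change was −1.42 on the log2 scale. That median was −2.35, −0.67 and −1.36 in pairs 1, 2 and 3. Of the 10066 genes also tested in the CDS, the log2 change of the 5′ UTR was below that of the CDS in 9368 (93.1%). The count rests on that scaling: with library sizes taken from the 5′ UTR counts themselves, 2 other 5′ UTRs were higher (Cers1 and Gm1043, named after their values were seen) and 6 lower. Without replicate 3 of all groups 2 passed, without replicate 1 of all groups 2993, and without the first or the third TurboID-PSD95 pair alone 2180 and 2423. With only the 6 libraries compared in the fit and their pairing kept, 1 passed (Rabggtb, higher), and without the replicate block none passed.

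Mest, an imprinted gene, moved in opposite directions in its 5′ UTR and its CDS. Its 5′ UTR (340 nt, start site printed above) had 467, 542 and 513 CPM in inputs and 57.4, 204 and 126 CPM in pulldowns (log2 −2.14, SE 0.361), while its CDS had 166, 112 and 131 CPM in inputs and 375, 164.5 and 279 CPM in pulldowns (log2 0.94, SE 0.132). In all 3 pairs the 5′ UTR fell, as the choice of genes required, and the CDS rose. The Cox8a 5′ UTR had 202, 464 and 299 CPM in inputs and 18.1, 194 and 74.4 CPM in pulldowns (log2 −2.18), and its CDS was also lower. Rpl13 was lower by 2.43 in the 5′ UTR, Tuba1a by 1.95, in a 5′ UTR it shares with Gm49450, while its CDS did not pass (log2 −0.07), and Epo by 2.32, where the 5′ UTR overlaps Gnb2.

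None of the 3 5′ UTRs that were higher passed with library sizes from the 5′ UTR counts, and they overlap other transcripts or had few counts. Rabggtb, a prenyltransferase subunit, had 1.30, 1.63 and 0.33 CPM in inputs and 38.3, 30.5 and 19.5 CPM in pulldowns (log2 4.87, SE 0.611, FDR 2.59e-08), in a 5′ UTR that overlaps the small nucleolar RNA Snord45c, while its CDS was lower (log2 −1.16). Rpl32 had 44.5, 27.5 and 15.1 CPM in inputs and 203, 58.3 and 85.8 CPM in pulldowns (log2 1.93, SE 0.389) and overlaps Snora7a. Gm20594 was higher by 4.36 at low counts.

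The pulldown over input of TurboID-PSD95 was compared with that of Pan-TurboID, to ask what the bait's location adds, and with that of resting neurons, to ask what depolarization adds. Against Pan-TurboID 1 of 13019 genes passed (0.00768%), Dlg4, whose pulldown over input was higher by 3.89 on the log2 scale (SE 0.393, FDR 0.000272). The TurboID-PSD95 construct itself carries the PSD95 coding sequence, so for Dlg4 construct and location cannot be told apart. Dlg4 was among 490 genes with an unadjusted p under 0.05. Against rest no gene passed by edgeR's quasi-likelihood test, 638 had an unadjusted p under 0.05, and DESeq2 called 1, Dgat1. The counts of 490 and 638 are both below a share of 0.05 of the 13019 genes, which tests with no difference would give on average. Such counts cannot show that there is no difference, since genes are not independent and replicate numbers were not paired across groups. Dlg4 differed from rest by 0.14 (FDR 0.989), and Dgat1, a triglyceride synthesis enzyme, had the smallest p-value (log2 −2.14, FDR 0.474). The SE of such a difference had a median of 0.363 and 0.362 on the log2 scale, against 0.259 for pulldown over input alone.

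Over 7674 genes with a mean log2 CPM of at least 4 (Dlg4 left out), the changes of TurboID-PSD95 and Pan-TurboID correlated with Pearson 0.90 and Spearman 0.91, and those of depolarized and resting TurboID-PSD95 with 0.92 and 0.92. The slope of the depolarized TurboID-PSD95 changes was 0.96 on those of Pan-TurboID and 0.81 on those at rest. These are descriptions across genes, which are not independent replicates, and no libraries are shared between the comparisons. No list member other than Dlg4 differed from Pan-TurboID, and none from rest. Dlg1 was higher by 1.36 than in Pan-TurboID and passed only without replicate 1 of all groups (log2 2.05, FDR 0.00709). Prpf4b, chosen after its values were seen, was higher than in Pan-TurboID by 1.37 without passing, and passed under DESeq2, with no filter on low counts and without the third TurboID-PSD95 pair (log2 1.81, FDR 0.00442). Pcdh18, also chosen after its values were seen, passed only in that last setting of those run (log2 1.52, FDR 0.0356). The Dlg4 call was lost without the second TurboID-PSD95 pair (log2 4.06, FDR 0.186) and without the replicate block (4.39, FDR 1).

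**Figure D5:**
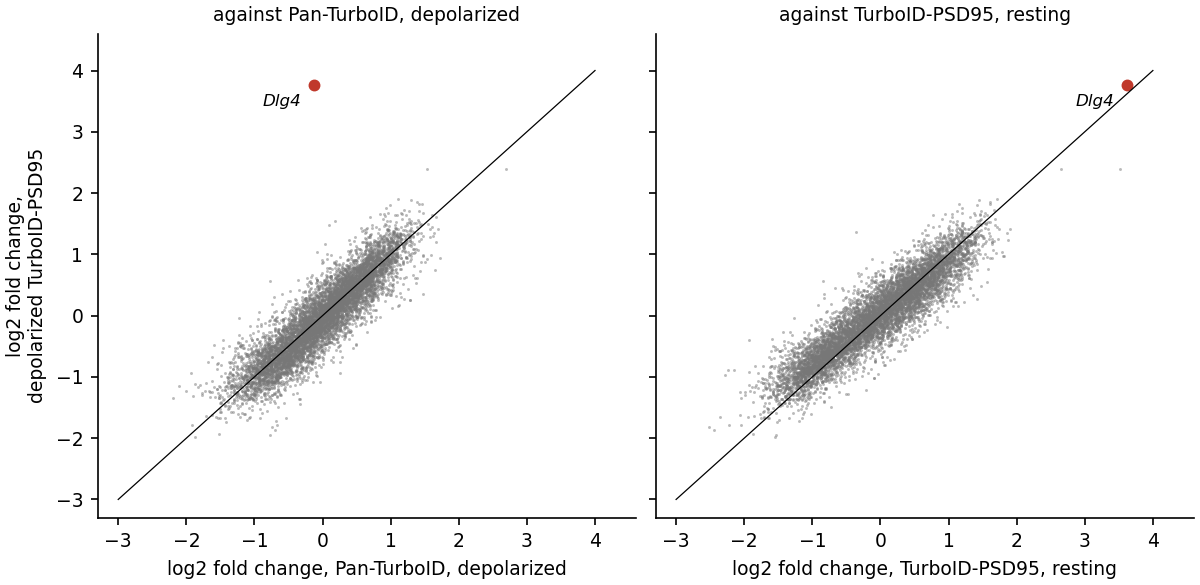
Log2 pulldown-over-input change of each gene in depolarized TurboID-PSD95 against that in depolarized Pan-TurboID (left) and in resting TurboID-PSD95 (right), for genes with a mean log2 CPM of at least 4; the line marks equal change. Without Dlg4 the changes correlated (Pearson 0.90 and 0.92), with slopes of 0.96 on Pan-TurboID and 0.81 on rest. Dlg4 lies apart from the line against Pan-TurboID, by 3.89.

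A last list held 27 genes, named by the study apart from Psd, and the study chose many of them on these samples, so the list is not independent evidence. The study named many of them on another measure, such as crosslinked RNA, or for a change from rest to depolarization. Pulldown over own input, given here, does not test those statements. Of the 27, 24 were tested, 7 were higher and 4 lower, beside 17.2% higher and 17.4% lower over all genes. Psd was higher by 0.51, and Rapgef4, an exchange factor for Rap, by 0.76. Timm23, a mitochondrial import subunit, was higher by 2.96 on few counts, 0, 0.61 and 1.31 CPM in inputs and 8.06, 3.58 and 6.49 CPM in pulldowns. Kmt2d (log2 0.12), Uqcrc1 (0.32, FDR 0.0508), Frmd6 (1.39, FDR 0.142) and Tamm41 (0.14) did not pass. Ghrl was at 0 in all 3 inputs and at 1.01, 2.65 and 0.62 CPM in the pulldowns (FDR 0.0572). Rgs14, Igf2bp1, Pml and P2rx7 were below 8 CPM in every library and did not pass, and Sphk1, Apobec1 and Eif1ad3 were not among the genes tested.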

How the data were processed

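Ribosome-footprint libraries from inputs and streptavidin pulldowns of depolarized TurboID-PSD95 neurons were analysed, with the other libraries of the KCl experiment in the same model. According to the study's methods, the authors trimmed reads, removed the molecular barcodes and aligned reads with Rsubread to mm10. The names of the alignments in the file headers mark them as free of rRNA reads and duplicates, by means not given in the sources used here. The deposited counts are whole numbers per transcript segment, made with plastid from 5′ ends at offset 0 with a minimum read length of 25 nt per the file headers; strand and multi-mapping settings are not given in the sources used here. Footprints of ribosomes near a start codon are therefore counted in the 5′ UTR.

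CDS counts were summed over the longest transcript of each gene and named by GENCODE (66664 of 67238 transcripts, 99.1%). Counts were tested with edgeR 4.0.16 (R 4.3.3, TMM, filterByExpr, robust quasi-likelihood F test) on 24 libraries with 12 cultures as blocks, 4 pulldown effects and 8 residual degrees of freedom, with Benjamini-Hochberg FDR at 0.05. The differences from Pan-TurboID and from rest were contrasts of the same fit. CPM values are edgeR counts per 1000000 CDS counts with TMM factors, in 5′ UTRs too. 5′ UTR counts were tested with the CDS library sizes. Shares of counts in regions were compared by exact permutation tests. The pairing comes from the shared culture, and deviations from group means correlated at 0.36 to 0.54 between samples of the same number and −0.51 to 0.04 between different numbers. Depth was 8854360 to 23120125 counts in the 6 depolarized TurboID-PSD95 libraries, and between replicates the chi-square per gene was 17.7 to 68.7, where 1 is sampling noise. The study calls the replicates biologically independent and states that resting and activated samples of the same replicate were processed together. The differences from Pan-TurboID and from rest did not pair replicate numbers across groups. Whether cultures came from separate dissections is not stated in the sources used here, so p-values measure the spread between these samples.

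Named genes were the 12 with the smallest p per direction that passed with all 3 pairs in one direction, up to 4 per list, the few of the other contrasts, and a list of genes the study names, to which Psd was added. The members and lists were chosen with earlier results of these data known. Scripts were tested on simulated data. Alternatives covered normalization, filters, test (DESeq2 1.42.0), transcript choice, length, inputs, pairing and left-out replicates. Samples of the other experiments in the series were not used here. A few genes are not reported here.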

Additional observations from a re-analysis of the deposited data

Results flagged for a closer look

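The pulldown over input of Dlg4 differed between the baits by a test of the difference itself. It was higher with TurboID-PSD95 than with Pan-TurboID in depolarized neurons by 3.89 on the log2 scale (SE 0.393, FDR 0.000272, edgeR), with pulldown-to-input ratios of 6.41, 11.9 and 27.7 in the 3 TurboID-PSD95 pairs. The bait construct encodes rat PSD95, and in these counts its footprints cannot be told apart from those of the endogenous gene.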

How the results depend on the processing

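The count of 4502 genes called between pulldown and input was 2344 against the mean of both inputs without the replicate block, 2446 with only the libraries compared and 1640 with no replicate block, and leaving out replicates gave 2080 to 4975. The samples are paired by culture, and without the block the difference from Pan-TurboID and the 5′ UTR comparison gave 0 calls each. That difference called 2 genes under DESeq2 (Dlg4 and Prpf4b) and 3 with no filter on low counts, and 0 to 3 with replicates left out. The difference from rest called 1 gene each under DESeq2, the likelihood ratio test and no filter (Dgat1) and with the highest-count transcript (Atp9a). The 5′ UTR comparison called 8 genes with library sizes from the 5′ UTR counts, 1 with only the libraries compared, and 2 to 5347 with replicates left out. With the length trend removed Shank1 (−0.50), Kmt2d (−0.72), Pclo (−0.51) and Snap25 (0.071) reversed, of which Snap25 alone had been called. Of 164 genes examined singly, 129 kept direction and side of the threshold there and these 4 reversed. Among the others 29 lost their call and 2 gained one. Of the 4 reversed, Shank1 (FDR 0.00677) and Kmt2d (FDR 5.6e-05) passed as lower with the length trend removed. Without the replicate block 43 of the 164 lost their call. The causes were not tested. The 5′ UTR share difference stayed negative (−9.21 to −15.2 points) and the 3′ UTR share difference positive (0.443 to 3.47) in all alternatives run, and the length correlation ran from 0.45 to 0.61. The difference in the first of the 5 CDS parts of −15.9 points was −14.6 to −17.6 under alternatives chosen after seeing the data. Low counts limit Ghrl, Timm23 and Gm20594, and 3 cultures per group set the smallest exact p at 0.25 paired and 0.1 unpaired.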
